A study of Mus musculus with 24 samples.

Results

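The cytosolic ribosomal protein genes encode the proteins that, with the ribosomal RNAs, build the large and small subunits of the ribosomes of the cytoplasm. They were taken as every gene whose symbol is Rpl or Rps followed by a number (with an optional a, l or x and a further digit), or is Rplp0 to Rplp2 or Rpsa. The rule found 82 of the 13686 genes in the count table, and 81 of them were among the 11971 genes tested. Rpl32l, with 0 to 21 counts in a library, was the member left out by the filter on low counts. Rps27 had no row in the table. The symbol rule passes over Fau, which encodes a ribosomal protein fused to a ubiquitin-like part, and over Rack1, a protein of the small subunit, so these are given apart.

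Messenger RNA was measured by QuantSeq, a 3′ tag method that counts sequence tags near the end of each transcript, in livers of male wild-type C57BL/6 mice, a common inbred laboratory strain. All animals had been fed for 6 weeks, on a diet enriched with cottonseed oil (CSO, 6 libraries), olive oil (OO, 6 libraries) or safflower oil (SFO, 5 libraries) or on chow (6 libraries). The study set CSO against the other diets, and the submitters left out SFO 4 as an outlier. The sources used here do not give the amount of oil or the make-up of the chow, so each comparison is between whole diets. The labels give each library as a sample of its own and do not say that each came from its own animal, so the p-values here rest on a spread that may be technical. Libraries held between 5428650 and 14930300 counts. Albumin, the main protein that hepatocytes secrete, averaged between 99200 and 119600 CPM (counts relative to the library's total) in the diets.

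Ribosomal proteins are made in near-equal numbers, because each ribosome holds a single copy of most of them. In mammals their mRNAs start with a run of pyrimidines, the TOP motif, through which the kinase mTORC1 sets how much of each mRNA is translated, and their promoters often hold sites for ETS factors, YY1 and Sp1. Many have processed pseudogenes, and a few have paralogs that replace them in particular tissues.

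The region around the start of 7 members is shown, because the comparisons below turn on them. Rps26 was called lower in OO livers. Rpl35, Rpl26 and Rpl41 had the next smallest p-values there and were chosen after their values were seen. Rps6 had about the same level in all diets, Rpl4 was the most abundant and steadiest member, and Rpl3l is a muscle paralog. Each run is the gene strand from 40 bases before to 20 bases after the annotated start in RefSeq's GRCm38.p6, whereas the counts were made on mm39. Capitals mark the motif CTTTCC, the motif CTCTTT or the motif TTCTTT lying within 10 bases before to 20 bases after the start. These 3 motifs can overlap each other.
Rps26, chr10:128626487-128626546, minus strand: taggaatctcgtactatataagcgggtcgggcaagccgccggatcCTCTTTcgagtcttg
Rpl35, chr2:39005112-39005171, minus strand: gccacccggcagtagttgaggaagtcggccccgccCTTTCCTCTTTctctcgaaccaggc
Rpl26, chr11:68901526-68901585, plus strand: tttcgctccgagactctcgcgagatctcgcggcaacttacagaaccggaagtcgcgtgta
Rpl41, chr10:128549149-128549208, minus strand: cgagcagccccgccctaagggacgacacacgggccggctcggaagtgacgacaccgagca
Rps6, chr4:86857348-86857407, minus strand: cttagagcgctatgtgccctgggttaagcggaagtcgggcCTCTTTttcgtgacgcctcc
Rpl4, chr9:64173347-64173406, plus strand: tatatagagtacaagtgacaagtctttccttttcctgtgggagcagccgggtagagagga
Rpl3l, chr17:24727786-24727845, plus strand: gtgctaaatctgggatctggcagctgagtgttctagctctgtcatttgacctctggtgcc

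Of the 82 members, 61 were matched by symbol in the RefSeq promoter table, which holds 27025 genes. A start motif lay in that window in 11 of the 61 members (18.0%), against 2.94% of all promoters. CTTTCC was found in 11.5% of members and 1.26% of all promoters, CTCTTT in 9.84% and 0.966%, and TTCTTT in 3.28% and 0.981%. Within 300 bases and on both strands, CCGGAAG, a core that ETS factors bind, was in 39.3% of members and 9.12% of all promoters. AAGATGG, a YY1 core, was in 13.1% and 6.48%, and GGGCGG, an Sp1 core, in 60.7% and 35.9%. A match describes the letters in the window and no more. The median log2 fold change in OO against chow was -0.373 over the 11 members with the motif and -0.389 over 49 without it, with 8 and 45 of them below 0.

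The members together were a small share of the liver transcripts counted here, between 0.322% and 0.567% of a library's counts. The 10 most abundant of them held between 37.6% and 51.5% of that share. CPM below are scaled by edgeR's composition factor (TMM), which corrects for a few very abundant genes taking up a library. Rpl4 had the highest mean CPM, at 417, followed in mean log2 CPM by Rps2, a protein of the small subunit's mRNA entry, and Rpl7. Of the 81 tested members Rpl3l was lowest, followed by Rps29 and Rps28, short proteins of the small subunit's head. Tags are counted once per transcript at its 3′ end, so length was not divided out, but capture of different 3′ ends can differ and levels of different genes are given only as an order. The SD of log2 CPM within diets had a median of 0.542 over members and 0.916 over all tested genes. It was smallest for Rpl4, at 0.175, and largest for Rpl3l, at 1.84.

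The summed level of the members was lower in OO libraries than in the other diets, with overlap. It was 4198, 3319, 4903, 4955, 5676 and 5482 CPM in CSO 1 to 6 and 3705, 3620, 4053, 4379, 4715 and 4483 CPM in OO 1 to 6. In SFO 1, 2, 3, 5 and 6 it was 5425, 5107, 5156, 4605 and 4209 CPM, and in chow 1 to 6 it was 4850, 4530, 4952, 5138, 4975 and 4645 CPM. OO 5 lay above 2 of the chow libraries, the other OO libraries lay below all 6, and CSO 2 was the lowest library of all. When each gene weighs equally the gap was wider. The mean log2 CPM of the 81 tested members was 5.11 ± 0.45 in CSO (SD, n = 6), 4.61 ± 0.28 in OO (SD, n = 6), 5.12 ± 0.22 in SFO (SD, n = 5) and 5.17 ± 0.11 in chow (SD, n = 6). CSO 2, at 4.28, lay with OO 1 (4.27) and OO 2 (4.36), while the other CSO libraries lay between 5.03 and 5.49. In a whole-liver sample, fewer cells of a type and less RNA per cell cannot be told apart.

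**Figure D1:**
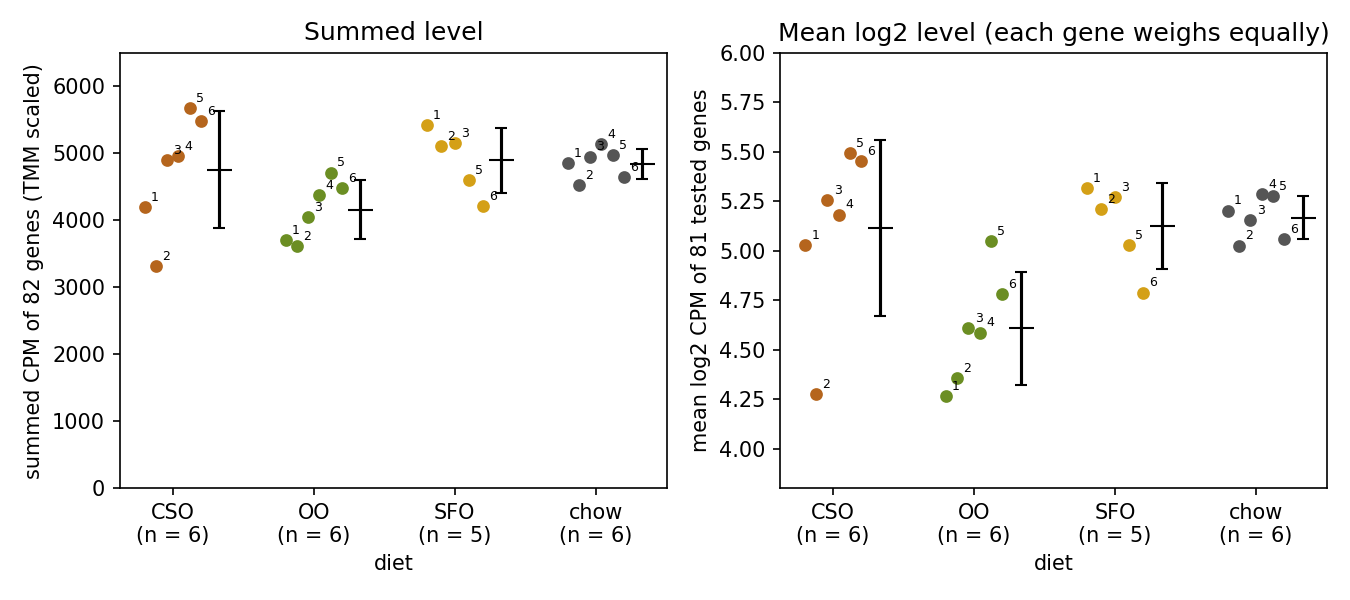
Left, summed CPM of the 82 ribosomal protein genes, and right, mean log2 CPM of the 81 tested ones, in each library by diet; points carry the replicate number, and bars show the mean ± SD. OO libraries sit lowest as a group on the right (mean 4.61), with CSO 2 at 4.28 beside them; the right axis does not start at 0.

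The OO libraries also differed in measures that do not use these genes alone. Thinned to 5e+06 counts, they held 10308 to 11573 detected genes, against 11370 to 12554 in CSO, 11326 to 12056 in SFO and 11870 to 12086 in chow. Their composition factors averaged 0.923 ± 0.078 (SD, n = 6), against 1.05 ± 0.036 in chow (SD, n = 6). CSO 2 had 12086 detected genes, more than any OO library, and a composition factor of 1.01, within the OO range of 0.811 to 1.03. The part of these measures in the lower ribosomal protein levels was not tested.

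In OO livers set against chow, most ribosomal protein transcripts lay lower, and few of them passed the test singly. The log2 fold change was below 0 for 71 of 81 members, against 45.6% of all tested genes. Its median was -0.384 over members and 0.0707 over all tested genes. In edgeR's quasi-likelihood test, with p adjusted over all 11971 genes, 2 members (2.47%) fell and 0 rose, against backgrounds of 0.919% of genes lower and 1.72% higher. Of these, Rpl3l passed the filter on low counts through CSO and chow libraries alone, and without it 1 of 80 (1.25%) fell, which is Rps26 and is a share near the background. At an unadjusted p under 0.05, 10 members (12.3%) were lower and 0 higher, against backgrounds of 6.44% and 9.68%. Rpl3l is among these 10 as well. DESeq2 called 4 members lower, Rpl3l, Rps26, Rpl35 and Rpl26, against 2.74% of genes. limma voom called 0 members, against 0.969% of genes either way. The large subunit's 49 tested members had a median of -0.447 and the small subunit's 32 a median of -0.299. Scaling by library totals alone moved the median of all genes to -0.115 and that of the members to -0.549, and in limma voom with sample weights these were -0.117 and -0.395. In the same comparison 15 of 19 tested muscle genes were called lower, with a median of -7.52. The muscle list summed to 2720, 5050 and 1200 CPM in chow 3, 4 and 5 and to at most 215 CPM in the other chow libraries. These calls therefore rest largely on those libraries and are given as a description. Of 15 hepatocyte genes 3 rose, Apoa1, Fgb and Cyp2e1, with a list median of 0.0867. At an unadjusted p under 0.05, 6 of the 15 were higher and 2 lower. These rises were not particular to OO: against chow, edgeR also called Apoa1 higher in CSO and in SFO, Cyp2e1 in CSO and Fgb in SFO. The part of the muscle and hepatocyte genes in the members' levels was not tested.

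In CSO and SFO livers the members' median fold change against chow lay near 0, and edgeR called none of them. In CSO against chow the median was 0.0458 over members and -0.0184 over all genes, with 38 of 81 members below 0 against 52% of all genes. In SFO against chow it was 0.0205 over members and 0.0127 over all genes, with 39 of 81 below 0 against 48.9%. The count of calls was 0 in both comparisons, where 0.409% of all genes were called in CSO and 0.835% in SFO. At an unadjusted p under 0.05 there were 0 members in CSO, against 2.98% of genes higher and 2.34% lower. In SFO there was 1, Rpl3l, among the 3.77% of genes that were lower. DESeq2 called 0 members in CSO, against 4.52% of the 2456 genes to which it gave an adjusted p, 23 of them members. In SFO it called 1, Rpl3l, lower, against 0.72% of genes. limma voom called 0 members in either, against 1.72% of genes in CSO and 1.02% in SFO. The same 6 chow libraries stand in all 3 comparisons, and single libraries decide the sign of the first. The median of the members in CSO against chow was 0.137 without CSO 2 and -0.0669 without CSO 6, and it was -0.085 in limma voom and -0.0065 with the replicate block.

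**Figure D2:**
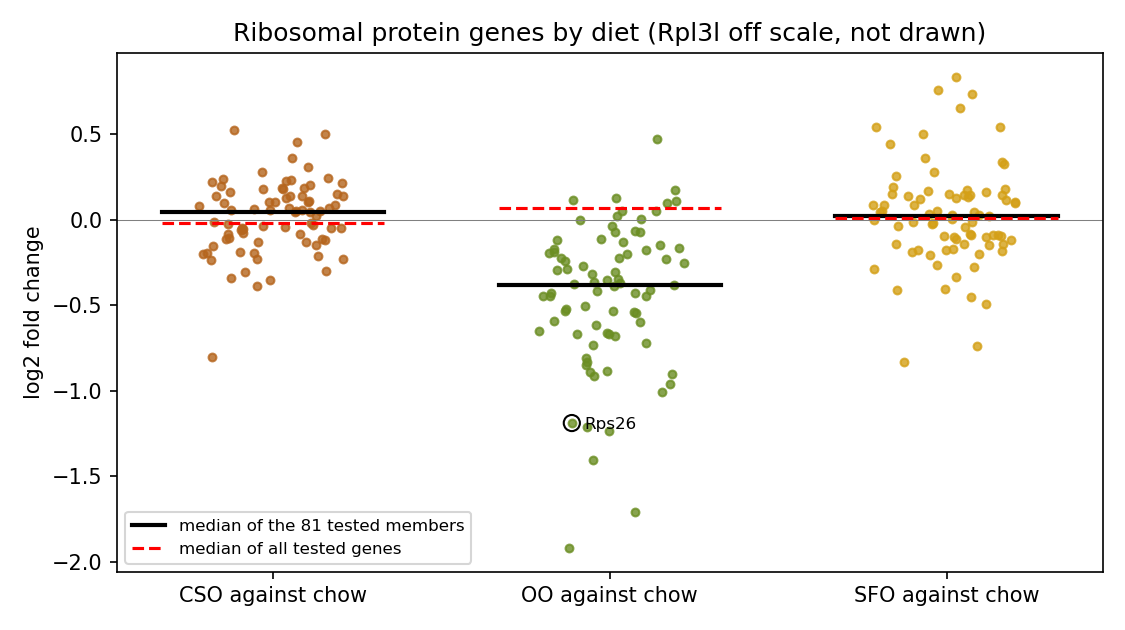
Log2 fold change of each tested ribosomal protein gene in CSO, OO and SFO livers, each against chow (1 point per gene; Rpl3l is off the scale and not drawn), with the median of the members (black) and of all tested genes (red, dashed). The OO cloud is centred at -0.384 and the other diets near 0.

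Within the group, the lower values in OO went with the length of the coding sequence. Lengths were taken from GENCODE M21 for 80 tested members, 75 to 1257 coding bases with a median of 462, against a median of 1413 for other tested genes. The 9 members with up to 300 coding bases had a median log2 fold change of -0.846 in OO against chow, and all 9 lay below 0. The 28 with 300 to 450 bases had -0.595, and all 28 lay below 0. The 19 with 450 to 600 bases had -0.344, with 17 below 0, and the 21 with 600 to 1200 bases had -0.147, with 14 below 0. Just 3 members were longer, with a median of -0.363. The shortest coding sequence, of Rpl41, is 75 bases.

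Other short genes lay lower in OO too, by less. Of other genes with up to 300 coding bases, 213 in number, 62.9% lay below 0 in OO against chow, with a median of -0.269. From 300 to 450 bases the median was -0.0638 (n = 461), from 450 to 600 it was -0.00725 (n = 683), from 600 to 1200 it was 0.099 (n = 3241) and above that 0.0982 (n = 6771). Over the 80 members, Spearman's rank correlation between coding length and log2 fold change was 0.608 in OO, -0.341 in CSO and 0.0912 in SFO. Over other genes it was 0.0334, -0.0826 and -0.00458. These points share the same libraries, and length and level go together here. Spearman's correlation between coding length and mean log2 CPM was 0.635 over members, and that between mean log2 CPM and the OO fold change was 0.623, against 0.216 over other genes. The parts of length and of level were not tested apart.

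**Figure D3:**
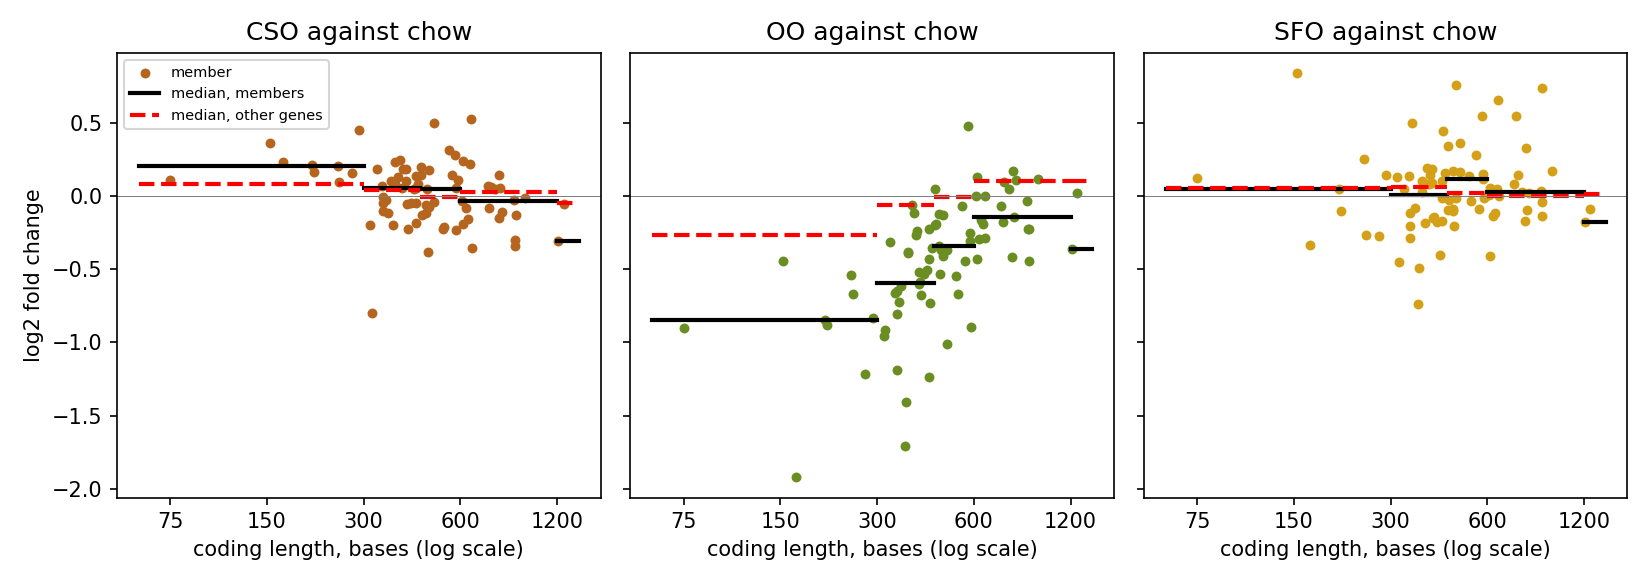
Log2 fold change against chow of 80 ribosomal protein genes by coding length (bases, log scale) in CSO, OO and SFO livers, with medians of 5 length classes for the members (black) and for other tested genes (red, dashed); Rpl3l lies below the axis in OO and SFO. In OO the member medians run from -0.846 in the shortest class to -0.147 at 600 to 1200 bases, and the other genes' medians from -0.269 to 0.099.

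The same pattern set single libraries apart. For each library, the median deviation from the gene's mean over 23 libraries was taken over the 37 members with up to 450 coding bases and over the 43 longer ones. For the short members this deviation was -1.11 in CSO 2 and lay between 0.067 and 0.71 in the other CSO libraries. It was -1.11, -1.02, -0.456, -0.554, 0.191 and -0.535 in OO 1 to 6. It lay between -0.298 and 0.41 in SFO, where SFO 6 had the single negative value, and between 0.069 and 0.492 in chow. Thus 5 of 6 OO libraries, CSO 2 and SFO 6 lay below 0, and all 6 chow libraries lay above. For the longer members the deviation was -0.346 in CSO 2, between -0.38 and 0.072 in OO, -0.214 in SFO 6 and between -0.04 and 0.201 in chow. Short genes outside the group had a deviation of -0.151 in CSO 2, between -0.481 and 0.11 in OO and between -0.044 and 0.19 in chow.

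**Figure D4:**
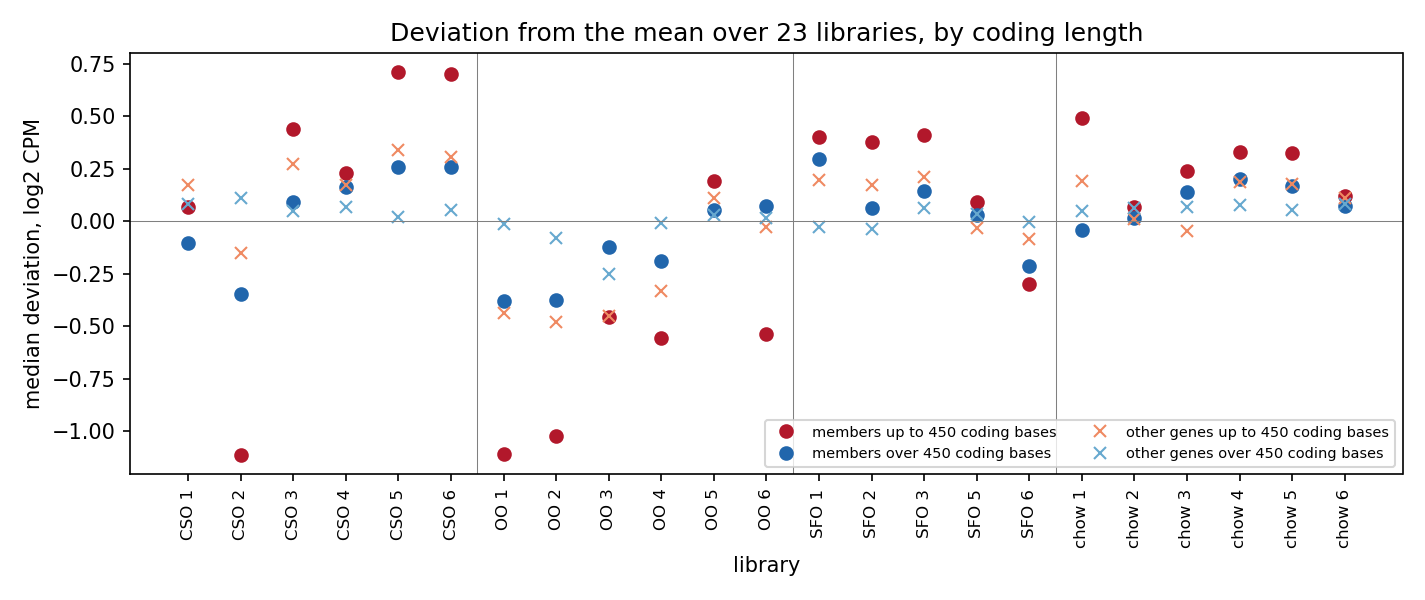
Median deviation of log2 CPM from each gene's mean over 23 libraries, per library, for ribosomal protein genes (filled circles) and other tested genes (crosses) with up to 450 coding bases (red) and more (blue). CSO 2 and OO 1 lie lowest, both at -1.11 for the short members, and every chow library lies above 0 for them.

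Rps26, a protein of the small subunit that contacts mRNA at the exit channel, was 1 of the 2 members that fell in OO. OO 1 to 6 had 16.1, 19.7, 27.1, 21.8, 25.9 and 23 CPM of it, whereas the chow libraries 1 to 6 had 72.8, 48.4, 43.7, 43.4, 44.4 and 51.9 CPM. The groups did not overlap. It was at 42.2, 9.78, 48.2, 53.9, 63.0 and 65.9 CPM in CSO 1 to 6, where CSO 2 lay below every OO library and the others lay within or near the chow range. In SFO 1, 2, 3, 5 and 6 it was at 29.5, 36.7, 60.2, 38.0 and 43.6 CPM, above all OO libraries. The log2 fold change in OO against chow was -1.19 ± 0.33 (SE; adjusted p = 0.0371 with edgeR's quasi-likelihood test), with means of 22.3 ± 4.06 CPM in OO and 50.8 ± 11.3 CPM in chow (SD, n = 6 each). The call was lost when any 1 chow library, OO 1, OO 2 or OO 4 was left out (adjusted p between 0.0501 and 0.0914), and without the 4 libraries with muscle transcripts described below (-1.37, adjusted p = 0.181). It was also lost in limma voom (adjusted p = 0.24) and with only OO and chow in the fit (adjusted p = 0.0664). In CSO against OO its log2 difference was 1.08 ± 0.33 (adjusted p = 0.0816), and without CSO 2 it was 1.29 and passed the threshold. In SFO against OO it was 0.90 ± 0.34 (adjusted p = 0.175), the 1 member of 81 whose groups did not overlap there, against a background of 0.535% of genes.

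Rpl36 and Rpl37a, short proteins of the large subunit, were the other members whose OO and chow libraries did not overlap. The 3 make up 3.7% of members, against 0.777% of all genes. Rpl36 lay between 8.97 and 26.9 CPM in OO and between 28.5 and 41.1 CPM in chow, a log2 fold change of -0.96 ± 0.38 (edgeR adjusted p = 0.162). Rpl37a lay between 0.806 and 5.717 CPM in OO and between 5.72 and 14.5 CPM in chow, so that its groups all but touched. These 2 were named after their values were seen.

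Rpl35 and Rpl26, which line the exit of the peptide tunnel, were low in OO with some overlap. OO 1 to 6 had 3.93, 6.16, 9.27, 6.73, 19.3 and 9.49 CPM of Rpl35, whereas the chow libraries had 31.9, 35.1, 15.8, 25.9, 15.3 and 21.6 CPM. OO 5 alone lay within the chow range. Rpl35 did not pass edgeR's threshold (-1.40 ± 0.47, adjusted p = 0.0857). Of Rpl26 the OO libraries had 12.3, 6.04, 3.74, 3.74, 14 and 19.75 CPM, and the chow libraries 18.8, 17, 25.6, 26, 34.2 and 18.7 CPM (edgeR adjusted p = 0.123). In the authors' deposited table for OO and chow, Rpl35 and Rpl26 have adjusted p-values of 0.0224 and 0.0421, and Rps26 and Rpl3l 0.00705 and 0.0067. These were the 4 members under 0.05 in that table, all lower in OO, where 2.58% of the genes with an adjusted p were lower and under 0.05.

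Rpl41, a very short basic peptide of the large subunit, averaged 46.6 ± 18.7 CPM in CSO, 23.2 ± 9.03 CPM in OO (SD, n = 6 each), 47.0 ± 17.3 CPM in SFO (SD, n = 5) and 43.3 ± 5.74 CPM in chow (SD, n = 6). In OO it lay between 13.6 and 38.2 CPM and in chow between 32.9 and 50.3 CPM, overlapping in the highest OO library. The difference did not pass the threshold against chow (-0.90 ± 0.33, edgeR adjusted p = 0.125) or in SFO against OO (1.02 ± 0.34, edgeR adjusted p = 0.126). Rpl34, another large subunit protein, had the smallest p in SFO against OO. It was at 39.0, 42.6, 35.3, 23.7 and 21.8 CPM in SFO 1, 2, 3, 5 and 6, whereas the OO libraries had 5.44, 12.9, 12.3, 21.9, 18.9 and 12.1 CPM (1.22 ± 0.40, edgeR adjusted p = 0.11). The groups met at OO 4 and SFO 6.

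Rpl3l replaces Rpl3 in ribosomes of skeletal muscle and heart. The 6 OO libraries together held 1 count of it (in OO 2) and the 5 SFO libraries 1 count (in SFO 3). It had 7.91, 0.952, 0, 0, 2.45 and 0 CPM in CSO 1 to 6 and 0, 1.79, 7.31, 15.0, 7.26 and 0 CPM in chow 1 to 6. The ratio of OO to chow was 0.00292, with a 95% counting interval of 7.37e-05 to 0.0163, from 1 count against 419. The interval covers counting error only. Rpl3l passed the filter on low counts through 2 CSO and 4 chow libraries alone, so that its edgeR call in OO against chow (adjusted p = 0.0287) comes with that choice and is given as a description. The call was lost in limma voom (adjusted p = 0.433), under the replicate block (adjusted p = 0.0734) and without chow 4, OO 1, OO 3 or OO 4 (adjusted p between 0.0502 and 0.0691). In SFO against chow the adjusted p was 0.0945. The authors' deposited table for SFO has an adjusted p of 0.0274, and it was the 1 member under 0.05 there, where 0.765% of genes were lower and under 0.05.

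Rpl3l was highest in 4 libraries that also held other transcripts of striated muscle. Acta1, the actin of skeletal muscle, had 314 CPM in CSO 1, 461, 887 and 186 CPM in chow 3, 4 and 5, and at most 27.7 CPM elsewhere. Of 20 listed muscle genes all 20 had counts in these 4 libraries. The list summed to between 1200 and 5050 CPM in them and to at most 215 CPM in the other CSO and chow libraries. It summed to between 31.1 and 67 CPM in OO and between 20.9 and 242 CPM in SFO. Neb, 1 gene of the list, was at 23.6 to 65.1 CPM in OO and 12.9 to 123 CPM in SFO. Each other listed gene was at most at 4.86 CPM in OO. Another 5 libraries had counts of Rpl3l without such levels: 33 in CSO 5, where Acta1 was at 0.593 CPM, 11 in CSO 2, 14 in chow 2, and 1 each in OO 2 and SFO 3. Lower amounts of muscle transcripts lay in some of them. Ttn, a listed muscle gene, was at 67.7 CPM in chow 2, 42.3 CPM in CSO 2 and at most 4.26 CPM in the rest. CSO 4 and SFO 6, with 0 CPM of Rpl3l, had 77.6 and 102 CPM of Ttn. Without the 4 libraries Rpl3l had too few counts to be tested. Rpl3 itself, the form of most tissues, averaged 36.8 ± 15.6 CPM in OO and 47.4 ± 16.6 CPM in chow (SD, n = 6 each), and its log2 fold change of -0.36 did not pass the threshold. The part of muscle transcripts in the levels of other members was not tested, and without the 4 libraries the median of the members in OO against chow was -0.372.

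**Figure D5:**
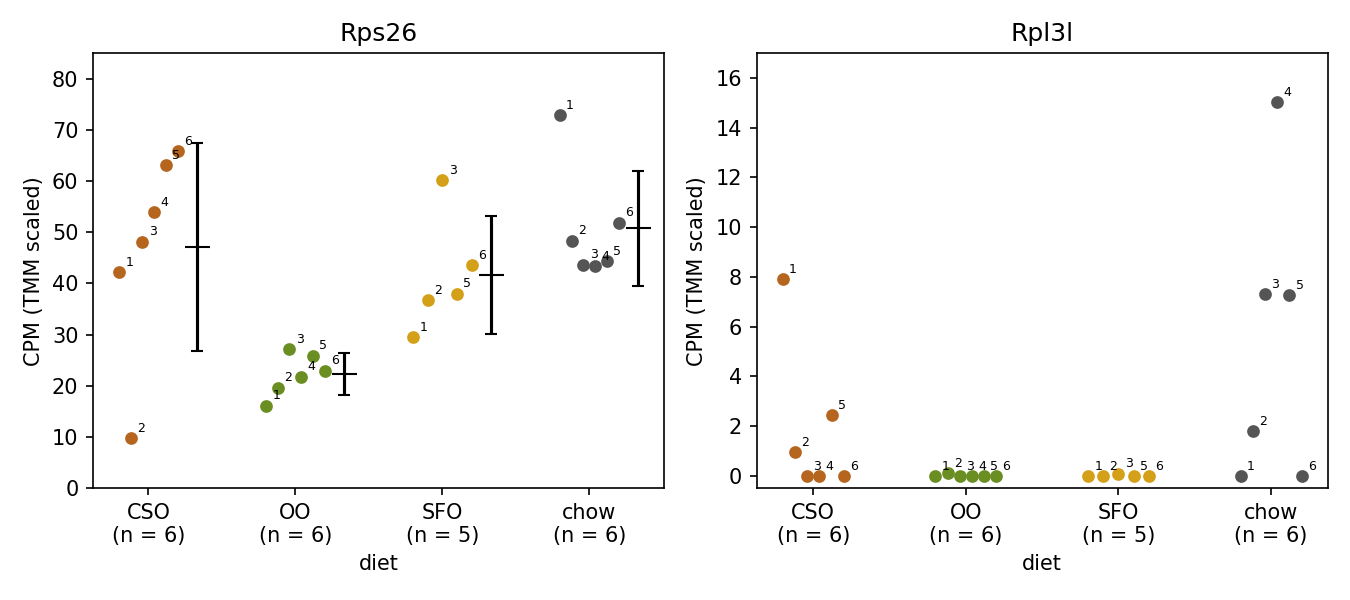
CPM of Rps26 (left, with mean ± SD) and of Rpl3l (right) in each library by diet, points numbered by replicate. Rps26 lies at 16.1 to 27.1 CPM in OO and 43.4 to 72.8 CPM in chow; Rpl3l is above 5 CPM in CSO 1 and chow 3, 4 and 5.

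The proteins of the stalk, which recruits the translation factors to the large subunit, are 1 long scaffold, Rplp0, and short acidic partners. The scaffold Rplp0 averaged 166 ± 31.5 CPM in CSO, 182 ± 28.5 CPM in OO (SD, n = 6 each), 190 ± 38.1 CPM in SFO (SD, n = 5) and 168 ± 33.9 CPM in chow (SD, n = 6), and these ranges overlapped throughout. The short partners Rplp1 and Rplp2 were lower in mean in OO. Rplp1 was at 36.3 ± 12.4 CPM in CSO, 21.8 ± 12.8 CPM in OO, 37.9 ± 14.9 CPM in SFO and 34.6 ± 14.9 CPM in chow. Rplp2 lay between 7.27 and 50.1 CPM in CSO, 3.79 and 33.4 CPM in OO, 21.0 and 41.3 CPM in SFO and 24.8 and 35.7 CPM in chow. Neither passed the threshold in OO against chow, and Rplp2 had -0.81 ± 0.42 (edgeR adjusted p = 0.338).

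Rpl5 and Rpl11, which with the 5S RNA form a particle that also binds the p53 regulator Mdm2, gave no call. Rpl11 averaged 48.0 ± 9.98 CPM in CSO, 35.0 ± 15.9 CPM in OO, 54.3 ± 16.2 CPM in SFO and 55.6 ± 19.3 CPM in chow, with -0.67 ± 0.30 in OO against chow (edgeR adjusted p = 0.245). Rpl5 was at 14.6 ± 7.29 CPM in CSO, 13.6 ± 6.37 CPM in OO, 26.5 ± 18.3 CPM in SFO and 15.9 ± 7.23 CPM in chow. Its SFO mean rests on SFO 2 at 54.7 CPM. Rps6, the substrate of S6 kinase, averaged 54.7 ± 7.88 CPM in CSO, 56.1 ± 11.2 CPM in OO, 57.9 ± 15.5 CPM in SFO and 52.4 ± 12.1 CPM in chow, which differ by less than their SDs. Rpsa, also known as the laminin receptor precursor, had the smallest p of the lower members in CSO against chow. It averaged 155 ± 25.8 CPM in CSO and 191.5 ± 24.4 CPM in chow (SD, n = 6 each; -0.30 ± 0.17, edgeR adjusted p = 0.9996).

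The paralogs other than Rpl3l gave no call either. Rpl22l1, a relative of Rpl22, had 0.806, 0.829, 1.38, 0.214, 2.79 and 6.11 CPM in the OO libraries and 2.66, 3.97, 2.57, 16.9, 7.52 and 6.00 CPM in the chow libraries. The lowest 4 OO libraries lay below every chow library (-1.71 ± 0.88, edgeR adjusted p = 0.337). Rps27l, a p53-responsive relative of Rps27, averaged 29.0 ± 11.4 CPM in CSO, 17.1 ± 8.07 CPM in OO, 22.5 ± 4.15 CPM in SFO and 27.1 ± 4.77 CPM in chow. Rpl7l1, a relative of Rpl7 known from ribosome assembly, was highest in mean in SFO, at 64.0 ± 29.3 CPM (SD, n = 5), against 43.8 ± 14.9 CPM in chow (SD, n = 6; 0.54 ± 0.33, edgeR adjusted p = 0.801). Rps4l was at 22.1 ± 8.89 CPM in CSO, 19.4 ± 12.7 CPM in OO, 12.2 ± 6.23 CPM in SFO and 21.8 ± 6.11 CPM in chow. Rpl32l, which was not tested, had its 21 counts in SFO 1 and at most 13 in any other library, and 0 in 13 of the 23.

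Several abundant long members had similar means in all diets. Rpl4 averaged 409 ± 51.7 CPM in CSO, 431 ± 65.2 CPM in OO, 399 ± 45.8 CPM in SFO and 424 ± 34.8 CPM in chow. Rpl7 averaged 181 ± 34.5 CPM in CSO, 211 ± 30.2 CPM in OO, 199 ± 16.0 CPM in SFO and 196 ± 15.9 CPM in chow. Rpl13a, known in human cells for a role in silencing inflammatory mRNAs, averaged 140 ± 26.6 CPM in CSO, 144 ± 28.3 CPM in OO, 144 ± 21.1 CPM in SFO and 144 ± 20 CPM in chow. Rpl9 had the smallest p among members above 0 in both OO and SFO, at 48.6 ± 23.9 CPM in OO, 51.0 ± 13.4 CPM in SFO and 35.0 ± 9.74 CPM in chow. In SFO against chow this was 0.54 ± 0.31 (edgeR adjusted p = 0.762), and the OO mean rests on OO 3 at 94.3 CPM.

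Between oil diets most members lay higher in CSO and in SFO than in OO, without a call for any of them singly in edgeR. In CSO against OO the median was 0.396 over members and -0.0796 over all genes, and 71 of 81 members lay above 0, against 44.6% of all genes. In SFO against OO the median was 0.402 over members and -0.0446 over all genes, and 75 of 81 lay above 0, against 47.4%. In CSO against SFO the medians were 0.00417 and -0.0295. edgeR called 0 members in any of the 3 pairs, where 1.09%, 1.06% and 0.493% of all genes were called in CSO against OO, SFO against OO and CSO against SFO. At an unadjusted p under 0.05, 13 members (16%) were higher in CSO than in OO, against 5.7% of all genes. Rpl3l is among these 13, and it passed the filter on low counts through CSO and chow libraries alone. In SFO against OO 14 members (17.3%) were higher at that threshold, against 6.44% of all genes. In CSO against SFO 1 member was, Rpl3l, against 3.6% of genes higher. DESeq2 called 3 members higher in CSO than in OO, against 1.48% of genes, and 2 higher in SFO than in OO, against 1.67%. In CSO against SFO it called 0 members, against 3.64% of the 3848 genes with an adjusted p, 43 of them members. limma voom called 0 members in each pair, against 0.952% of genes in CSO against OO, 0.0752% in SFO against OO and 1.06% in CSO against SFO. The pairs with OO share its 6 libraries. Rps10 and Rpl17, the members above 0 with the smallest p in CSO against chow, passed in no pair. Rps10 averaged 37.9 ± 14.7 CPM in CSO (SD, n = 6), 34.4 ± 17.4 CPM in SFO (SD, n = 5) and 26.8 ± 6.63 CPM in chow (SD, n = 6).

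Other genes and lists of translation were set beside the members in OO against chow. Of all tested genes, edgeR called 1.72% higher and 0.919% lower there. At an unadjusted p under 0.05 these shares were 9.68% and 6.44%. The shorter lists hold too few genes for their counts to be set against such shares. Outside the symbol rule, Fau was at 14.4 ± 5.94 CPM in OO and 30.2 ± 9.03 CPM in chow (SD, n = 6 each; -1.07 ± 0.39, edgeR adjusted p = 0.119), while Rack1 was at 275 ± 75.2 CPM in OO and 254.5 ± 27.2 CPM in chow. Of 7 elongation factors 3 were higher in OO and 0 lower at an unadjusted p under 0.05, with a median of 0.178. With p adjusted, 1 rose and 0 fell. It was Eef2, which moves the ribosome along the mRNA, at 2127 ± 223 CPM in OO and 1627 ± 159 CPM in chow (SD, n = 6 each; 0.39 ± 0.10, edgeR adjusted p = 0.0284). Of 29 initiation factors 0 passed the threshold and 2 were higher and 1 lower at an unadjusted p under 0.05, with a median of 0.151. Of 61 ribosome biogenesis factors 1 rose and 0 fell, a share near the background, with a median of -0.0151. At an unadjusted p under 0.05, 5 of them were higher and 4 lower. The 1 that rose was Nat10, which acetylates ribosomal RNA (1.73 ± 0.40, edgeR adjusted p = 0.0115). The 23 genes of the mTORC1 pathway and TOP mRNA control had 0 calls, 1 higher at an unadjusted p under 0.05, and a median of 0.0217. The 78 mitochondrial ribosomal proteins, a list chosen after their values were seen, had 0 calls, 2 higher and 3 lower at an unadjusted p under 0.05, and a median of 0.0398. Other mRNAs with a TOP motif, 8 in number, had a median of -0.385 and 0 calls, with 2 lower at an unadjusted p under 0.05. In CSO and SFO against chow these 6 lists had 0 calls in edgeR, where 0.409% and 0.835% of all genes were called. Each had at most 2 genes at an unadjusted p under 0.05, and the medians lay between -0.144 and 0.133.

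Counting of these genes can be blurred by near-identical copies. Of 80 members, 47 (58.8%) had at least 1 annotated pseudogene with 95% identity over at least 50 of the last 200 transcript bases, against 1.44% of other tested genes. Rpl7a had the most, 52. The sources used here do not say how the counting treated tags that match several places, and the levels of these members are uncertain for that reason. For each gene 1 annotated transcript was searched, the longest of those ranked best, so copies of its other 3′ ends were not looked for. Rps15a, for example, was searched at the end of a transcript of 5179 bases, with 390 coding bases, and had 0 copies. Over the 80 members, Spearman's correlation of this copy number was -0.0144 with mean log2 CPM and 0.123 with the OO fold change. Because the copy number depends on the transcript chosen, these values cannot show whether copies go with level or fold change. A strand setting is not given either, so tags of genes that overlap a member cannot be told from its own.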

How the data were processed

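The authors deposited raw counts per gene for 23 liver libraries. Per the submitters' processing notes, Trimmomatic, STAR 2.7.1a, HTSeq 0.9.1, DESeq2, DESeq and the build mm39 were used. No source used here states a strand setting. The authors also deposited a table of results for each oil diet, with a log2 fold change of chow over oil (its sign turned here) and its standard error, the Wald statistic as a score, and the raw and adjusted p-value. SFO_4, left out by the submitters as an outlier, has no column.

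The analysis used R 4.3.3 and edgeR 4.0.16 (TMM, filterByExpr, robust quasi-likelihood F test, all 4 diets in 1 fit), and p was adjusted by Benjamini-Hochberg over 11971 genes, with calls made under 0.05. A prior count of 2 entered log2 CPM. limma 3.58.1 and DESeq2 1.42.0 were alternatives, with other scalings and filters, fewer libraries and a replicate block. The procedure was tested on simulated counts. Copies of 3′ ends were found with BLAST 2.17.0 against GENCODE M21 transcripts, which with RefSeq's promoters are of another build, so genes were joined by symbol. Members and lists were chosen with earlier results of these data known.

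Members named with values were those called, the 2 with the smallest p each way in each comparison, the highest, lowest, steadiest and most variable 3, and a set of stalk, 5S particle, S6, laminin receptor and paralog genes. Others were chosen after their values were seen. Some results of single genes are not reported here.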

Additional observations from a re-analysis of the deposited data

Results flagged for a closer look

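Among 112 sets of libraries of 1 diet examined for a member named here, 11 had a library far from the others of its diet. Chance flags about 1 in 20 independent sets, and these sets share libraries, so the number is not read against that rate. CSO 2 was the low library in 5 of them. It had 9.78 CPM of Rps26, against 42.2 to 65.9 CPM in the other CSO libraries. It had 13.7 CPM of Rpl41, against 40.2 to 68.9 CPM, and 7.27 CPM of Rplp2, against 25.7 to 50.1 CPM. It had 8.91 CPM of Rps27l, against 25.8 to 42 CPM, and 60.8 CPM of Rpl6, against 89.7 to 107 CPM.

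Rps23, which lies at the decoding centre of the small subunit, was at 30.9 CPM in OO 2, against 2.21 to 4.58 CPM in the other OO libraries. Chow 1 had 72.8 CPM of Rps26, against 43.4 to 51.9 CPM in the other chow libraries. Chow 3 had 32.9 CPM of Rpl41, against 43.2 to 50.3 CPM, and 17.2 CPM of Rpl7l1, against 38.3 to 58.7 CPM. Rpl3l was at 0.118 CPM in OO 2 and at 0.0911 CPM in SFO 3, 1 count each, and at 0 in the other libraries of those diets, so that these flags follow from a single count.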

How the results depend on the processing

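The count of 2 members called in OO against chow was 4 with DESeq2, 0 with limma voom, 0 with only those 2 diets in the fit, 1 with the replicate block and 0 without the 4 libraries with Acta1 over 100 CPM. Leaving out 1 library at a time gave 0 to 3. DESeq2 also called 1 member in SFO against chow, 3 in CSO against OO and 2 in SFO against OO, where edgeR called 0. In CSO against OO the count with 1 library left out ran from 0 to 2, with 2 without CSO replicate 2. The medians of the 6 comparisons moved by less than the spread between replicates in every alternative, but that of CSO against chow, near 0, changed sign in limma voom (-0.085), under the block (-0.0065) and without chow 2, CSO 5 or CSO 6 (lowest -0.0669). The medians of SFO against chow and CSO against SFO were also near 0 and changed sign in some alternatives, to -0.0404 (without SFO 3) and -0.105 (limma voom) at the lowest. In OO against chow the median lay between -0.549 and -0.347. Scaling by library totals alone moved the median of all genes in OO against chow to -0.115 (0.0707 with composition factors), and 3 named members changed sign: Rpl7 in OO against chow (-0.0707), Rplp0 in CSO against OO (0.0153) and Rpl4 in SFO against OO (0.0204). Rpl3l lost its call in OO against chow in limma voom (adjusted p = 0.433), under the block (adjusted p = 0.0734) and without chow 4, OO 1, OO 3 or OO 4. The causes were not tested. The labels do not say whether libraries with equal replicate numbers were matched. Over 33 same-numbered pairs the correlation of deviations from diet means ran from -0.101 to 0.0346, with 0 over 0.1. No shared deviation was thus seen, which does not show how the libraries were prepared. Depth limits the lowest members most: Rps29, for example, had 1 to 10 counts in an OO library.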
